A study of Mus musculus with 76 samples.

Results

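The genes described here code for 10 neuropeptides of the arcuate nucleus other than those made from Pomc, Cartpt, Agrp and Npy. They are Pdyn, Penk, Sst, Gal, Tac1, Tac2, Adcyap1, Trh, Ghrh and Nts. The members were chosen by name, and 10 of 10 were found among the 56980 genes of the count table through their Ensembl identifiers. Each of the 10 had a count in at least 1 cell.

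The arcuate nucleus lies at the base of the hypothalamus and holds neurons that sense energy state and neurons that steer the pituitary. Most of its neurons release a neuropeptide beside a fast transmitter, and a peptide is cut from a longer precursor, so that 1 gene can give several peptides. Pomc neurons restrain food intake through melanocortins, and subsets of arcuate neurons are known by other peptides, such as the growth hormone-releasing hormone neurons and the neurons that hold kisspeptin, neurokinin B and dynorphin together.

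Cells were taken by patch pipette from the arcuate nucleus of male mice that carried Pomc CreERT2, a tdTomato reporter and Pomc-eGFP, and the RNA of each cell was read as 1 SMART-Seq library. In this model a tamoxifen-driven Cre under Pomc promoter elements labels for good the cells in which that promoter was active, and eGFP under the Pomc promoter reports its activity at the time of recording. All mice received tamoxifen at 12 weeks of age, and 2 weeks later were given chow diet (CD) or high-fat diet (HFD) for 6 months, with 5 mice on each diet. Cells with tdTomato and eGFP are called Pomc+, and cells with tdTomato but no eGFP are called Ghost. By the labels the CD cells are 23 Pomc+ and 15 Ghost, and the HFD cells 19 of each. They name no mouse, so each combination of eGFP label and diet is 1 sample of cells, and no difference below has a replicate check. Intervals of shares treat the cells of a group as independent and cover that counting error only, although cells share mice that are not named. No molecular identifiers are described, so floors on summed counts cover counting error only as well.

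The labels were checked against marker genes. Pomc had a count in 73 of 76 cells, 41 of 42 Pomc+ and 32 of 34 Ghost cells. Its mean was 6296 CPM in Ghost and 11652 CPM in Pomc+ cells on CD (ratio 0.540), and 3686 and 3414 CPM on HFD (ratio 1.08). The Pomc mean was thus lower in Ghost cells on CD and not on HFD, and Ghost cell 687 on CD had 34418 CPM. At least 2 of 7 neuron markers were counted in 73 of 76 cells. Markers of oligodendrocytes and astrocytes were also common, with at least 1 marker in 68 and 59 cells. The total per cell ran from 4057 to 1452605 counts. Its median was lowest in the Ghost CD group, at 123528. It was 339691 in the Pomc+ CD, 333785 in the Ghost HFD and 393797 in the Pomc+ HFD group.

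Of the 10 genes, Pdyn was counted in the most cells, 32 of 76, before Sst in 29 and Gal in 20. Tac1 was counted in 9 cells, Ghrh in 8, Nts in 7, Adcyap1 in 6, Trh in 5, Tac2 in 4 and Penk in 2. At least 1 of the 10 was counted in 58 cells, and 51 of these held Pdyn, Sst or Gal. Levels were compared between genes only as CPM, the counts of a gene scaled to the same total in every cell, per kilobase of joined exons, averaged over the 76 cells. On this scale Sst stood at 98.1, Gal at 69.7 and Pdyn at 34, against 4965 for Pomc and 2004 for Cartpt. The ranges of these 3 genes over the 4 groups overlapped, from 39.4 to 178 for Sst, 29 to 130 for Gal and 7.05 to 76.5 for Pdyn, so their order is not resolved. Ghrh followed at 13.3, Tac2 at 6.42, Nts at 5.01, Tac1 at 3.84, Trh at 2.83, Penk at 0.659 and Adcyap1 at 0.388. These 7 rest on few cells and their group values spread widely, for Ghrh from 1.77 to 35.8 and for Tac2 from 0 to 22.3, so their order is not resolved either. Each of the 58 cells with 1 of these genes also held Pomc counts. A listed gene stood above Pomc per kilobase in 2 of them, and in both it was Sst: Pomc+ cell 693 on HFD with 10534 counts in all, and Pomc+ cell 699 on CD with 48861.

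**Figure D1:**
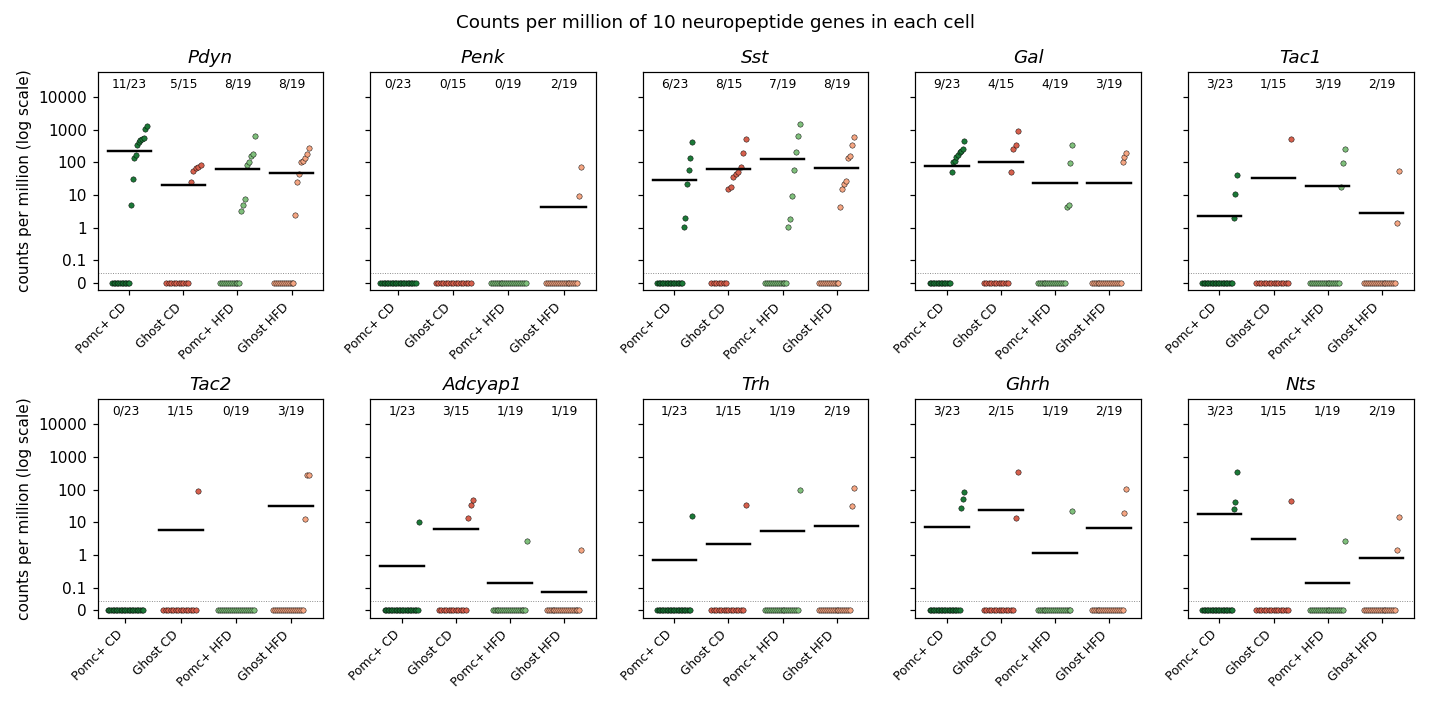
CPM of each of the 10 genes in each cell (log axis; cells without a count are drawn at the mark 0 under the dotted line), by eGFP label and diet. Points are cells, bars are means over all cells of a group, left out where a group has no count, and the numbers at the top give cells with a count of all cells. Pdyn, Sst and Gal were counted in all 4 groups in at least 3 cells each, and Tac2 and Penk had no count in a Pomc+ cell.

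Pdyn codes for the precursor of dynorphins, which act on the kappa opioid receptor. In Pomc+ cells on CD it was counted in 11 of 23 cells, with 4.80 CPM in the lowest of these, a median of 420 and 1353 in the highest. In Ghost cells on CD it was counted in 5 of 15, at 85.8 CPM in cell 690, 72.2 CPM in cell 711, 66.8 CPM in cell 635, 54.8 CPM in cell 636 and 25.9 CPM in cell 661, with 66.8 as the median. Of the 19 Pomc+ cells on HFD, 8 had a count, from 3.17 to 653 CPM with 93.2 as the median. Of the 19 Ghost cells on HFD, 8 had a count, from 2.53 to 274 CPM with 107 as the median. On CD, 9 of the 11 Pomc+ cells with a count lay above every Ghost cell, whereas on HFD 1 of 8 did. The share of cells with a count differed less, at 45.2% of Pomc+ cells (95% interval 29.9 to 61.3, exact Clopper-Pearson) and 38.2% of Ghost cells (22.2 to 56.4).

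The mean over all cells, including those at 0, was 221 CPM in Pomc+ and 20.4 CPM in Ghost cells on CD, 10.8-fold lower in Ghost cells. On HFD the means were 63.3 and 46 CPM, and without Pomc+ cell 638 the ratio of Ghost to Pomc+ turned from 0.727 to 1.51. The Pdyn mean was thus lower on HFD than on CD in Pomc+ cells (ratio 0.287) and higher in Ghost cells (ratio 2.26, or 1.64 without Ghost cell 671). These opposite directions were not tested. The cell numbers fall into 8 runs of consecutive numbers of 1 diet, whose meaning the labels do not state. In each of the 6 runs with at least 3 cells of both labels the Pdyn mean was lower in Ghost than in Pomc+ cells. The same was true of 1.47% of the 12265 genes that passed a filter of 5 counts in each of 3 cells. That share is low by construction, because a gene must be counted in a Pomc+ cell of each of these runs. Genes counted in few cells cannot meet this, and no share among genes of like frequency is given. On CD the Ghost and Pomc+ means of Pdyn in these runs were 40.6 and 285, 6.46 and 219, 21.5 and 482, and 18.04 and 67.6 CPM. On HFD they were 31.9 and 74.6, and 8.36 and 70.4 CPM. Without the highest cell of each run, a step chosen after seeing the data, Pdyn was lower in Ghost cells in 4 of 6 runs. It turned in an HFD run without Pomc+ cell 638, to 31.9 CPM in Ghost and 10.3 in Pomc+ cells, and in a CD run without Pomc+ cell 707, to 18.04 and 5.13 CPM. In the 2 runs with 1 cell of a label the Ghost mean was the higher one, 273.9 against 34.9 CPM with 1 Ghost cell, and 55.98 against 0 CPM with 1 Pomc+ cell.

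Penk, the precursor of enkephalins, was counted in 2 cells, both Ghost cells on HFD. Cell 671 had 22 counts and cell 715 had 1. In Pomc+ cells it was counted in 0 of 42, for which the exact 95% interval reaches 8.41% of cells. At 23 counts in 2 cells, Penk did not pass the filter.

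Sst codes for somatostatin, an inhibitory peptide of local neurons that also restrains growth hormone release. It was counted in 16 of 34 Ghost cells (47.1%, interval 29.8 to 64.9) and 13 of 42 Pomc+ cells (31%, 17.6 to 47.1), intervals that overlap. Expected shares after thinning each cell to 40000 counts, with the 8 shallower cells left out, were 40.1% and 17.9%. The mean was 67.1 CPM in Ghost and 73.7 CPM in Pomc+ cells, the other order. By diet the means ran in opposite directions, at 63.9 and 28.4 CPM on CD (ratio 2.25) and 69.6 and 128 CPM on HFD (ratio 0.542). Without Ghost cell 636 the CD ratio was 1.08, and without Pomc+ cell 693 the HFD ratio was 1.36. Over both diets the log2 ratio of the means changed sign with the scaling. It was -0.58 without the genes counted in every cell and -0.13 by CPM. By the deposited normalized counts it was 0.53, and by summed counts 1.93. Cells with a count ran from 15.6 to 530 CPM (median 48.3) in Ghost cells on CD and from 1.09 to 430 (median 41.3) in Pomc+ cells on CD. On HFD they ran from 4.25 to 598 (median 84.4) in Ghost cells and from 1.06 to 1519 (median 58.4) in Pomc+ cells. The groups overlapped throughout. The highest value came from Pomc+ cell 693, which held 16 Sst counts among 10534 and, with 743 genes, fell under the quality filter of 1000 genes. In the cells that passed this filter the log2 ratio of Ghost to Pomc+ was 0.82, the direction of the shares. Of the 6 runs of cell numbers with at least 3 cells of both labels, the Sst mean was lower in Ghost cells in 4 and higher in 2. The share of cells with a count was larger in Ghost cells in 3 of these runs and smaller in 3. Without cell 693 alone the ratio of Ghost to Pomc+ moved from 0.911 to 1.75, and that of HFD to CD from 2.33 to 1.43. The log2 ratio of HFD to CD was 1.22 by CPM, 1.27 by the normalized counts, 0.74 by summed counts and 0.17 without the genes counted in every cell.

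A list of 4 peptide genes of neurons outside the arcuate nucleus was set beside such shares, and its genes differed widely. Avp, the vasopressin gene of the paraventricular and supraoptic nuclei, was counted in 34 of 76 cells, and Oxt, the oxytocin gene of the same nuclei, in 40. Hcrt and Pmch, peptide genes of the lateral hypothalamus, were counted in 4 cells each, fewer than 8 of the 10 genes. Per kilobase the means of Avp and Oxt over the 76 cells were 158 and 106 CPM, beside 98.1 for Sst. Their ranges over the 4 groups overlapped, from 57.8 to 294 for Avp, 41.1 to 181 for Oxt and 39.4 to 178 for Sst. The order of these 3 genes is thus not resolved. Avp or Oxt was counted in 61.8% of Ghost and 54.8% of Pomc+ cells, at median totals of 309718 and 366744 counts. Sst was counted in 20 of the 44 cells with Avp or Oxt and in 9 of the 32 cells without. Each of the 10 genes was counted in fewer cells than Avp and Oxt, so a count in a cell is read here as a count and not as synthesis of the peptide. The part of RNA from outside the cell in these counts was not tested.

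Gal codes for galanin, a peptide of several hypothalamic neuron types that is also made by growth hormone-releasing hormone neurons. It was counted in 13 of 38 cells on CD (34.2%, interval 19.6 to 51.4) and 7 of 38 on HFD (18.4%, 7.74 to 34.3). In Pomc+ cells on CD the 9 of 23 cells with a count ran from 50 to 469 CPM around a median of 168. In Ghost cells on CD the 4 of 15 were cell 636 with 880 counts, cell 635 with 267, cell 661 with 25 and cell 668 with 19. On HFD the 4 of 19 Pomc+ cells were cell 638 with 245 counts, 642 with 109, 647 with 4 and 718 with 2, and the 3 of 19 Ghost cells were 643 with 170, 671 with 58 and 720 with 8.

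The mean was 86.6 CPM on CD and 23.2 CPM on HFD, a ratio of 0.268. It was 0.310 in Pomc+ and 0.223 in Ghost cells. Without Ghost cell 636, which held 40.6% of the Gal counts on CD, the ratio over both labels was 0.358 and that in Ghost cells 0.496. Between labels the means were close, 58.1 CPM in Ghost and 52.4 CPM in Pomc+ cells, and without cell 636 the Ghost mean was 32.8. Of the 6 runs with at least 3 cells of both labels, the Gal mean was higher in Ghost cells in 3 and lower in 3. By the deposited normalized counts the log2 ratio of Ghost to Pomc+ was -0.65, against 0.15 by CPM and 0.54 by summed counts, and 0.51 with genes found in all cells left out of the totals. By run of cell numbers, Gal was counted in 5 of 6, 5 of 12, 2 of 8 and 1 of 12 cells in the CD runs, and in 4 of 21, 1 of 4, 0 of 5 and 2 of 8 in the HFD runs. The run with 5 of 6 was also the deepest, with a median of 881590 counts, and had a Gal mean of 293 CPM. The other 3 CD runs had means of 60, 72.6 and 19.3 CPM, and the HFD runs 27.9, 47.8, 0 and 13.2 CPM, so CD and HFD runs overlapped. Markers of other cells also moved with diet. The summed CPM of 6 microglia markers was 97.7 on CD, with P2ry12 at 0, and 888 on HFD, with C1qb the most abundant in both. That of 6 oligodendrocyte markers was 271 and 553, led by Mbp, with Mog at 0 on HFD, and that of 6 astrocyte markers was 209 and 216. The astrocyte sum differed by label, at 217 on CD and 362 on HFD in Pomc+ cells and at 196, with Aldh1l1 at 0, and 69.6 in Ghost cells. Gfap was the most abundant of the 6 in Pomc+ cells on CD and Ghost cells on HFD, and Slc1a2 in the others. The part of these markers in the differences of Gal or of the other genes, between diets or labels, was not tested.

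Tac1 and Tac2 code for tachykinins, substance P and neurokinin A from Tac1 and neurokinin B from Tac2. Tac1 was counted in 6 Pomc+ and 3 Ghost cells. Ghost cell 687 on CD held 349 of the 620 Tac1 counts, and the other Ghost cells were 697 with 25 and 653 with 1, both on HFD. The Pomc+ cells were 658 with 14, 666 with 1 and 685 with 1 on CD, and 651 with 138, 644 with 70 and 642 with 21 on HFD. The ratio of Ghost to Pomc+ was 1.65 with cell 687 and 0.163 without it. Tac2 was counted in 4 Ghost cells, 705 on CD with 11 counts and 652, 694 and 646 on HFD with 24, 19 and 5. It was counted in 0 of 42 Pomc+ cells, for which the exact 95% interval reaches 8.41%. For the 4 of 34 Ghost cells the interval is 3.30 to 27.5%, and the 2 intervals overlap. Summed over cells, Tac2 was at least 26.8-fold higher in Ghost cells, taking 3 counts as the floor for the Pomc+ sum, and at least 16-fold without cell 652. These floors hold for the counts of the cells taken and do not cover which cells were taken. The 4 cells had a median total of 102858 counts, below the 366744 of Pomc+ cells.

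Adcyap1 codes for PACAP, a peptide of the adjoining ventromedial nucleus among other places. It was counted in Ghost cells 687 with 34 counts, 684 with 2 and 668 with 1 on CD, Ghost cell 653 with 1 on HFD, and Pomc+ cells 660 with 2 on CD and 642 with 3 on HFD. Cell 687 thus held 79.1% of its counts as well as most of those of Tac1. The ventromedial transcription factor genes Nr5a1 and Fezf1 were counted in 1 and 2 cells, and neither was counted in cell 687. Trh, the precursor of thyrotropin-releasing hormone, was counted in Ghost cells 643 with 137, 637 with 42 (both HFD) and 635 with 26 (CD), and in Pomc+ cells 642 with 117 on HFD and 660 with 3 on CD. Its mean was 6.54 CPM on HFD and 1.29 on CD, a ratio of 5.05, and 2.79 without cell 643. Between Ghost and Pomc+ cells the ratio was 1.91, and 0.713 without cell 643. The median total of the 5 Trh cells was 1155104 counts, against 303063 in the other cells.

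Ghrh codes for growth hormone-releasing hormone, which acts on the pituitary. It was counted in 4 Ghost cells, 635 with 269 counts, 668 with 1, 671 with 32 and 640 with 7, the former 2 on CD. It was also counted in Pomc+ cells 663 with 81, 667 with 22 and 703 with 21 on CD and 642 with 26 on HFD. The Ghost mean of 14.2 CPM was 3.13-fold above the Pomc+ mean of 4.55. Without cell 635 it was 4.18 CPM and the ratio 0.918. Nts, the neurotensin precursor, was counted in Pomc+ cells 662 with 212 counts, 663 with 40, 631 with 36 (all CD) and 642 with 3 (HFD), and in Ghost cells 661 with 23 (CD), 698 with 2 and 653 with 1 (both HFD). Its mean was 12 CPM on CD and 0.477 on HFD, a ratio of 0.0396, and 0.155 without cell 662. As log2 the ratio was -4.66 by CPM, -6.73 by the deposited normalized counts and -5.95 by summed counts. Without the genes counted in every cell it was -3.72. Between Ghost and Pomc+ cells the ratio was 0.183, and 1.04 without cell 662. The 3 Nts cells on HFD held 6 counts in all.

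Fold changes were read against all genes, because past 2-fold in means over few cells is common. Of the 10 genes, 8 passed the filter, and Penk and Adcyap1 did not. Between Ghost and Pomc+ cells 4 of 8 were past 2-fold, Tac2 and Ghrh higher and Pdyn and Nts lower in Ghost cells, beside 42.5% of the 12265 genes that passed and 47.7% of those counted in 4 to 32 cells. On Pomc+ cells alone Tac2 would not have passed the filter, nor Nts on Ghost cells alone, so the filter itself favours a difference in these 2 of the 4. Tac2 and Nts are counted again in the tallies on CD and on HFD below. Trh, counted in the CD tally, would not have passed on Pomc+ cells alone either. Tac1, lower in Ghost cells in the HFD tally, would not have passed on Ghost cells alone, where 2 cells held at least 5 counts. Without its highest cell, Ghrh (635) stood at 0.918 and Nts (662) at 1.04. On CD 7 of 8 were past 2-fold, Sst, Tac1, Tac2, Trh and Ghrh higher and Pdyn and Nts lower in Ghost cells, beside 55.3% of genes and 61.2% of those in 4 to 32 cells. Of these only Pdyn held without its highest cell, at 0.120 without 689. Sst stood at 1.08 without 636, Ghrh at 0.130 without 635 and Nts at 0.983 without 662. Without cells 687, 705 and 635 the Ghost cells on CD had 0 counts of Tac1, Tac2 and Trh. On HFD 4 of 8 were past 2-fold, Tac2, Ghrh and Nts higher and Tac1 lower, beside 55.5% and again 61.2%. Tac2 was at least 7.60-fold higher without 652, and Tac1 stood at 0.451 without 644. Ghrh stood at 0.884 without 671, and Nts had 1 count in Ghost cells without 698. On HFD each label held 3 Nts counts, and the summed CPM was 0.325 for Ghost and 0.345 for Pomc+ cells, the other order. No HFD cell held 5 Nts counts, so Nts is in this tally through CD cells only. Between HFD and CD 7 of 8 were past 2-fold, beside 41.1% of all genes and 46.3% of the genes counted in 4 to 32 cells. Sst, Tac2 and Trh were higher and Pdyn, Gal, Ghrh and Nts lower on HFD. On CD cells alone Tac2 and Trh would not have passed the filter, and Nts passed through CD cells only, so the filter favours a difference in these 3 of the 7. No support for a difference is read from the counts of genes or the medians given here. Without its highest cell, Gal stood at 0.358 (636), Nts at 0.155 (662), Tac2 at 3.35 (652) and Trh at 2.79 (643), all past 2-fold. Sst at 1.43 (693), Ghrh at 0.787 (635) and Pdyn at 0.501 (689) were not. Within Pomc+ cells Tac2 had 0 counts on both diets and so no ratio. The other 7 were past 2-fold, Sst, Tac1 and Trh higher and Pdyn, Gal, Ghrh and Nts lower on HFD. Of all genes with a ratio there 51.1% were, and 56.8% of those in 4 to 32 cells. There Sst stood at 1.80 without 693, Tac1 at 2.72 without 644, Ghrh at 0.324 without 663 and Nts at 0.0440 without 662, and Trh had 0 counts on HFD without 642. Within Ghost cells 7 of 8 were past 2-fold, Pdyn, Tac2 and Trh higher and Gal, Tac1, Ghrh and Nts lower on HFD, beside 58% and 64.5%. There Pdyn stood at 1.64 without 671, Tac2 at 2.72 without 652, Trh at 0.801 without 643 and Gal at 0.496 without 636. Without 687, 635 and 661 the Ghost cells on CD held 0 counts of Tac1, 1 of Ghrh and 0 of Nts. The median log2 ratio of the 8 genes was 0.44 for Ghost to Pomc+ and -0.90 for HFD to CD, where that of all genes was -0.17 and 0.05. Counted as cells, 6 of the 10 genes were found in a larger share of Ghost than of Pomc+ cells, beside 41.7% of the 23013 genes with a count. For HFD over CD it was 5 of 10, beside 46.4%.

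Counts of several of these genes in the same cell were frequent. At least 2 of the 10 were counted in 16 of 34 Ghost cells (47.1%, interval 29.8 to 64.9) and in 18 of 42 Pomc+ cells (42.9%, 27.7 to 59). By diet the shares were 47.4% on CD (31 to 64.2) and 42.1% on HFD (26.3 to 59.2), and these intervals overlap in both comparisons. At 40000 counts per cell the expected shares were 40.1% in Ghost, 35.5% in Pomc+, 47.5% in CD and 28.1% in HFD cells. Over the 76 cells, 18 held none of the genes, 24 held 1, 17 held 2, 10 held 3 and 7 held at least 4, as the map of genes by cell shows. Cells with at least 2 of the genes were the deepest, with a median total of 578584 counts, against 120718 in cells with 1 and 210975 in cells with none. The part of depth in joint detection was not tested beyond the thinning.

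**Figure D2:**
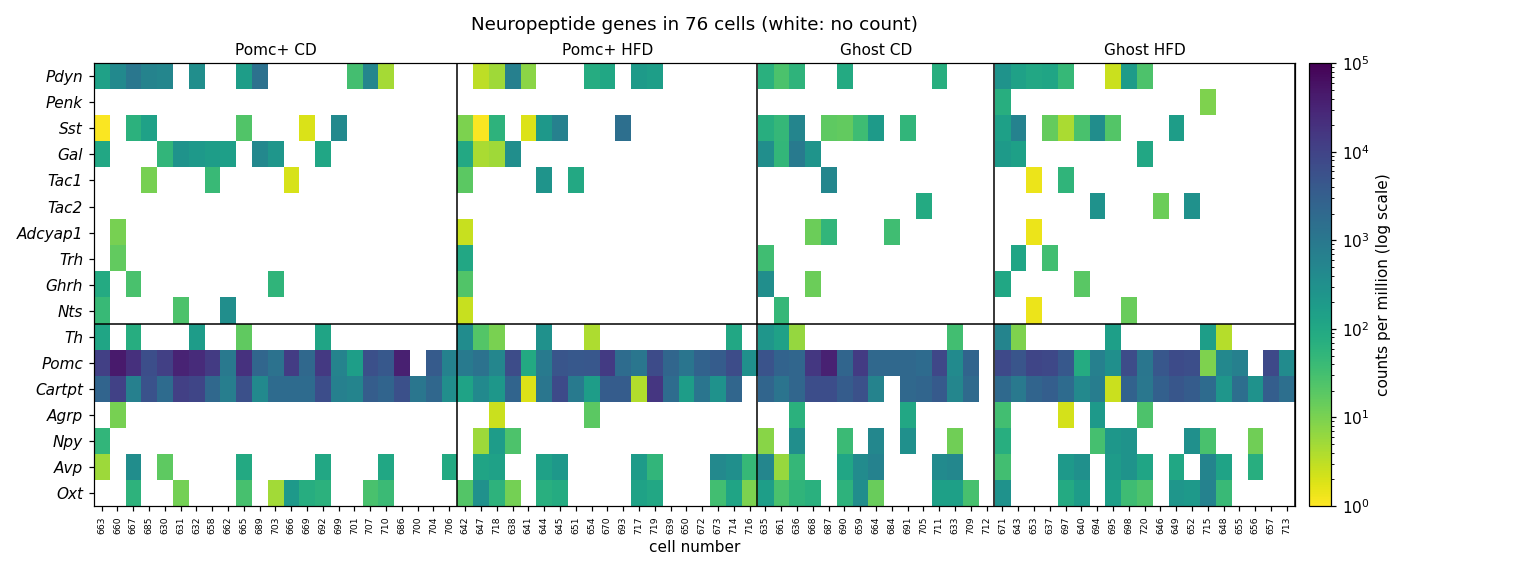
CPM (log colour scale, white for no count) of the 10 genes and of Th, Pomc, Cartpt, Agrp, Npy, Avp and Oxt in each of 76 cells, in columns by group and, within a group, by how many of the 10 genes were counted. Pomc and Cartpt fill nearly every column, Pomc+ cell 642 holds 7 of the 10 genes, and Ghost cells 635 and 671 and Pomc+ cell 663 hold 5 each.

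Of the 45 pairs of genes, 33 were found together in at least 1 cell. Pdyn and Sst shared 16 cells, 50% of the Pdyn and 55.2% of the Sst cells, and Sst was counted in 29.5% of cells without Pdyn. Pdyn and Gal shared 13 cells, and Sst and Gal shared 9. By the Jaccard index, cells with both genes over cells with either, these 3 pairs stood at 0.356, 0.333 and 0.225. The medians of 8856 genes were 0.324 with Pdyn, 0.231 with Sst and 0.235 with Gal. Whether a pair overlaps more than other genes of like frequency was not tested. Pdyn, Sst and Gal were counted together in 8 cells. Among the 38 cells at or above the median total, Sst was counted in 13 of 20 cells with Pdyn and 6 of 18 without, and among the 38 shallower cells in 3 of 12 and 7 of 26. Whether the deeper and shallower cells differ in this was not tested.

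Among the other 9 genes, the most frequent partners of Ghrh were Gal and Sst. Gal was counted in 6 of 8 Ghrh cells and in 20.6% of the other 68 cells, and Sst in 6 of 8 and 33.8%. Oxt was counted in 7 of 8 Ghrh cells and 48.5% of the others, and Avp in 5 of 8 and 42.6%. Th, which codes for tyrosine hydroxylase and is known from growth hormone-releasing hormone neurons and dopamine neurons of the arcuate nucleus, was counted in 5 of 8 Ghrh cells and 22.1% of the others. Ghrh, Gal and Th were counted together in 4 cells, Ghost cells 635 and 671 and Pomc+ cells 642 and 663. Their Th counts were 181, 171, 426 and 105, and their Pomc counts 4075, 2385, 1057 and 10563. In the 38 deeper cells Gal was counted in 4 of 6 Ghrh cells and 34.4% of the others, Sst in 5 of 6 and 43.8%, and Th in 4 of 6 and 37.5%. In the 38 shallower cells, with 2 Ghrh cells, it was 2 of 2 and 8.33% for Gal, 1 of 2 and 25% for Sst, and 1 of 2 and 8.33% for Th. The transcription factor gene Gsx1 was counted in 3 cells, 2 of them with Ghrh.

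The combination of kisspeptin, neurokinin B and dynorphin was not found. Kiss1 was counted in 0 of 76 cells, for which the exact 95% interval reaches 4.74%. None of the 4 Tac2 cells held Pdyn, which was counted in 44.4% of the other 72 cells. The Tac2 cells had a median total of 102858 counts, against 331358 in the others, and the part of depth in this was not tested. The receptor gene Tacr3 was counted in 1 cell, with Pdyn but without Tac2. Esr1, the estrogen receptor gene of that list, was counted in 20 cells, 13 of them with Pdyn and none with Tac2. Of the genes listed for somatostatin neurons, Unc13c was counted in 5 cells, 3 of them with Sst, and Pthlh in none. Of those for dopamine neurons, Prlr was counted in 29 cells, Ddc in 24, Th in 20 and the dopamine transporter gene Slc6a3 in 4.

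Npy or Agrp, the peptide genes of the neurons that oppose Pomc neurons, were counted in 21 cells, 19 of which held at least 1 of the 10 genes. Npy was counted in 11 of 29 Sst cells and 12.8% of the cells without Sst. In the shallower cells it was 5 of 10 and 3 of 28, and in the deeper cells 6 of 19 and 3 of 19. Of the 11 cells with Npy and Sst, 8 were Ghost and 3 Pomc+. Npy itself was counted in 13 of 34 Ghost and 4 of 42 Pomc+ cells, so Sst was in 8 of 13 and 3 of 4 of these. The part of Npy and Agrp cells in the label differences of Sst was not tested. Among the 16 cells with Pdyn and Sst together, 9 were Ghost and 7 Pomc+.

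Likeness of detection was measured by the same index against the 8856 genes counted in 10 to 60 cells. For Pdyn the nearest were Snx17 (0.64, 28 shared cells) and Klhl7 (0.63, 24 cells). For Sst they were Specc1l (0.49) and Rpl6l (0.48). For Gal they were Clip2 (0.52) and Hnrnpul1 (0.47). None of these 6 codes for a neuropeptide, and all cells share the wide range of depth.

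Of 23 receptor genes for the 10 peptides, 17 had a count and 3 were counted in at least 10 cells. Adcyap1r1, the PACAP receptor gene, was counted in 30 cells, 18 Pomc+ and 12 Ghost, with means of 83.7 and 32.1 CPM. Sort1, the sortilin gene, which also binds neurotensin, was counted in 17 cells, 13 Pomc+ and 4 Ghost, with means of 32.4 and 3.82 CPM. Ntsr2 was counted in 15 cells, 6 Pomc+ and 9 Ghost, with means of 46.3 and 68.2 CPM, and is known from astrocytes as well as neurons. The other 14 were counted in 1 to 9 cells, and 6 had no count.

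The genes lie on 7 chromosomes in GRCm38, the build named in the notes of the submitters. In GENCODE M21, Pdyn lies at chr2:129686565-129699844 and Ghrh at chr2:157329497-157347506, Sst at chr16:23889573-23890958 and Gal at chr19:3409915-3414544, all on the minus strand. Tac1 (chr6:7554879-7565834), Tac2 (chr10:127724478-127731768) and Adcyap1 (chr17:93199017-93206537) lie on the plus strand, and Penk (chr4:4133531-4138819), Trh (chr6:92242061-92244650) and Nts (chr10:102481756-102490486) on the minus strand. The Ensembl identifiers in the table are ENSMUSG00000027400 for Pdyn, ENSMUSG00000045573 for Penk, ENSMUSG00000004366 for Sst, ENSMUSG00000024907 for Gal, ENSMUSG00000061762 for Tac1, ENSMUSG00000025400 for Tac2, ENSMUSG00000024256 for Adcyap1, ENSMUSG00000005892 for Trh, ENSMUSG00000027643 for Ghrh and ENSMUSG00000019890 for Nts. The joined exons measure 2887 bases for Pdyn, 721 for Sst, 788 for Gal and 668 for Ghrh. Since 4907 identifiers of the count table are not in GENCODE M21, the annotation used for counting was another one, and lengths may differ from it.

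RefSeq promoter windows on GRCm38.p6, of 300 bases each, were found for 9 of the 10 genes. They were searched on both strands for TGACGTCA, the cyclic AMP response element, for its 5-letter part TGACG, which the full element contains, and for TATAAA. The full element was in 1 of the 12 windows of these genes, that of Sst, and in 1.79% of 32851 windows. TGACG was in 9 of 12 windows, from 7 genes, and in 20.8% of all windows. The windows of Adcyap1 overlap and hold the same match, which is in the 9 for each of them. TATAAA was in 2 of 12, of Adcyap1 and Ghrh, and in 13.6% of all. The windows of Sst, which holds the full element, and of Gal and Ghrh, which shared 6 cells, are given 5′ to 3′ on the minus strand, with matches to TGACG, to its reverse complement CGTCA and to TATAAA in capitals. They lie at chr16:23890795-23891094, chr19:3414495-3414794 and, for the start of Ghrh that lies further downstream, chr2:157337377-157337676. A match is a match of letters and not a measured site.
Sst: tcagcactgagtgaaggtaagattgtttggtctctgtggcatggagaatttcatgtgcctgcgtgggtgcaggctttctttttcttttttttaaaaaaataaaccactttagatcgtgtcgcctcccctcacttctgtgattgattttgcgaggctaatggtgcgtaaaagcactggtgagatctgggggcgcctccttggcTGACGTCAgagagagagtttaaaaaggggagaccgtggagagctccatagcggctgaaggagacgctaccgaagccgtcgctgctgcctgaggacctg
Gal: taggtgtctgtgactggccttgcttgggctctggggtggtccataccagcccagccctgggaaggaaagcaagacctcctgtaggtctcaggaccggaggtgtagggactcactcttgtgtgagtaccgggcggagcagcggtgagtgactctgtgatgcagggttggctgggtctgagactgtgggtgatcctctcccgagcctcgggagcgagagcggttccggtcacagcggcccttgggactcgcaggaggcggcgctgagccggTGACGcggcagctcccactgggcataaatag
Ghrh: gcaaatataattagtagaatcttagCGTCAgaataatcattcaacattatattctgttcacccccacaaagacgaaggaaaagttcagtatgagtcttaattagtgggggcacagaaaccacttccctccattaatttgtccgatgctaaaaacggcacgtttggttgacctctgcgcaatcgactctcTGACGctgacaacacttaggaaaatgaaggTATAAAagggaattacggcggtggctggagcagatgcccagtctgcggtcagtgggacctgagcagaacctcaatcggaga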

How the data were processed

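Per the labels, each library held the content of 1 patched cell. Submitters' processing notes name cutadapt 2.10, STAR 2.7.5a, DESeq2 and GRCm38; the counting program and annotation are not given in the sources used here. The authors deposited whole-number counts per gene and, as a second table, the signal of each gene as counts divided by 1 DESeq2 size factor per cell. Counts were read with Python 3.11.15, pandas 2.3.3 and scipy 1.17.1 and expressed as CPM of all counts of a cell. Symbols came from GENCODE M21 for 52073 of 56980 identifiers. Ratios are of mean CPM over cells; where 1 side had 0 counts, summed CPM with a floor of 3 counts was used. Past 2-fold counted as called. Shares carry exact 95% binomial intervals. Thinned shares are exact hypergeometric expectations at 40000 counts. No p-value was computed. Steps were tested on simulated data. The rule for named genes took all 10 members, Pomc, Cartpt, Agrp and Npy, listed genes counted in at least 10 cells and, for each member counted in 10 to 60 cells, the 2 nearest genes by Jaccard index. Kiss1, Tacr3, Gsx1, Unc13c, Pthlh, Slc6a3, Nr5a1, Fezf1, Hcrt and Pmch fall outside it and were chosen after their values were seen. Members and lists were chosen with earlier results of these data known. No 2 cells held identical counts.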

Additional observations from a re-analysis of the deposited data

How the results depend on the processing

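Shares of cells with at least 2 of the 10 genes stayed within their 95% intervals when a gene was counted from 2 counts, after thinning and in the 71 cells that held 1000 or more genes and no more than 20% mitochondrial counts. Counted from 10 counts, they were 26.5% in Ghost and 21.1% in HFD cells, outside those intervals. In Pomc+ and CD cells they were 33.3% and 39.5%, inside them. The share was then lower in Ghost than in Pomc+ cells, the reverse of the order from 1 count. This rule keeps fewer genes per cell by construction, and why the loss was uneven was not tested. The numbers of genes found in a larger share of Ghost or of HFD cells moved by at most 1 gene. Among genes past 2-fold, the log2 ratio of Ghost to Pomc+ reversed without the highest cell for Ghrh (-0.12) and Nts (0.0597), and on HFD for Nts (2.58) and for Adcyap1 (-0.92), which did not pass the filter. That of HFD to CD reversed for Pdyn within Ghost cells (1.17). The Nts value on HFD rests on 3 counts for each label. Among genes not past 2-fold the sign changed under 11 alternatives between labels and 2 between diets. Without the highest cell, Ghost to Pomc+ went from 0.73 to -2.61 for Tac1, from 0.93 to -0.49 for Trh, from 0.15 to -0.68 for Gal and from -0.13 to 0.80 for Sst. HFD to CD went for Tac1 from -0.42 to 2.94 without cell 687 and 3.06 in Pomc+ cells. The cause was not tested beyond the cell left out. For Penk and Tac2, with 0 counts in Pomc+ cells, the ratio between labels is a floor whose sign cannot turn, and so is that of Penk between diets, with 0 on CD. For Gal, HFD to CD ran from -2.52 without the genes counted in every cell to -1.29 with the deposited normalized counts. For Pdyn, Ghost to Pomc+ ran from -3.44 on CD to -0.46 on HFD. The deposited scaling moved the median log2 ratio of all genes between labels from -0.17 to -0.66, a shift of -0.49. The shift was -0.66 on CD, -0.28 on HFD and 0.30 for HFD to CD within Ghost cells. Labels name neither mouse nor experiment, and each run of cell numbers holds both eGFP labels but 1 diet, so run and diet cannot be told apart, nor can mouse and group. Most of these genes rest on under 10 cells each, and 1 cell often sets the mean.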

Other observations

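Of 33 further neuropeptide genes, 15 had a count and 1 was counted in at least 10 cells. Nucb2, the nesfatin precursor gene, was counted in 23 cells, 14 Pomc+ and 9 Ghost, with means of 34.8 and 29.3 CPM. The other 14 were counted in 1 to 9 cells, and 18 had no count. Of the 4 peptide genes of neurons outside the arcuate nucleus, Oxt had means of 85.0 CPM in Ghost and 34.4 CPM in Pomc+ cells, and Avp of 133 and 57.3 CPM. Hcrt was counted in 4 Ghost and 0 Pomc+ cells, and Pmch in 3 and 1.

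Pomc+ cell 642 on HFD held counts of 7 of the 10 genes, Sst, Gal, Tac1, Adcyap1, Trh, Ghrh and Nts, among 1155104 counts and 5886 genes. Its Th count was 426, and Pomc had 1057 counts and Cartpt 146. Ghost cell 671 on HFD held Pdyn, Penk, Sst, Gal and Ghrh among 303063 counts. It was the only cell with more than 1 Penk count.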
